A study of Mus musculus with 8 samples.

Results

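The genes described here encode the nuclear part of the oxidative phosphorylation system of mitochondria. They were chosen by name: every gene probe whose name begins as those of the complex I subunits (Nduf a, b, c, s or v with a number), the succinate dehydrogenase subunits (Sdha to Sdhd), the complex III subunits (Uqcr), the cytochrome c oxidase subunits (Cox followed by a number between 4 and 8) or the ATP synthase subunits (Atp5). The rule took 108 of 41174 gene probes, for 80 genes, and all 80 were among the 19032 genes tested. Of these, 35 are counted by name with complex I, 4 with complex II, 7 with complex III, 17 with complex IV and 15 with complex V. The remaining 2, Cox4nb (now Emc8) and Atp5s (now Dmac2l), carry a matching name but are no subunits.

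RNA was measured on 8 one-colour Agilent mouse arrays, in 4 groups of 2 arrays. V5 IP and GFP IP are RNA immunoprecipitations (IPs) with an antibody against V5 or against GFP, mock IP is the same procedure with normal mouse IgG, and input is total RNA. All groups came from cultures that express a fusion of DAZL, a germ cell protein that binds RNA, with GFP and the V5 tag. The cells were V6.5 mouse embryonic stem cells (mixed C57BL/6 and 129SV background) that had been differentiated for 12 days towards primordial germ cells and depleted of feeder cells. The lysates were native, with no ultraviolet crosslinking, and both antibodies bind the same fusion protein. The series describes 2 independent IP experiments. It does not say whether they came from separate cultures, so p-values measure only how far these arrays differ, in part perhaps for technical reasons.

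The oxidative phosphorylation system passes electrons along 4 protein complexes of the inner mitochondrial membrane and uses the proton gradient that they build to make ATP. Complex I takes electrons from NADH, complex II from succinate, complex III hands them from ubiquinol to cytochrome c, and complex IV passes them to oxygen. Complex V, the ATP synthase, is driven by the returning protons. Complex II is made wholly from nuclear genes, whereas the other complexes also contain subunits from the mitochondrial genome, which are not analysed here. Pluripotent stem cells are known for a strong use of glycolysis, and mitochondrial respiration is known to increase as such cells differentiate.

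In input RNA all 10 measured primordial germ cell markers were above background on both arrays. But so were all 7 cardiac and muscle, all 5 endoderm, all 4 neural, all 3 mesenchyme and all 3 feeder fibroblast markers. The same held for all 7 spermatogenic markers and for 3 of 4 blood and endothelium markers. Markers of other cell types were thus measured in these cultures, and in such bulk RNA fewer cells of a type and less RNA per cell cannot be told apart. The germ cell list included Dazl, and these cultures express a DAZL fusion. How much of any Dazl signal came from the fusion was not tested. Between 61.3% and 70.5% of gene probes were well above background per array. The 75th percentile of the intensity was 352 on mock IP replicate 1, the dimmest array, and between 641 and 1130 on the other 7. A principal component with 24.5% of the variance set that array apart, so results against mock IP are also given without it. Slide 1 carried replicate 1 of all groups and slide 2 replicate 2. Values are log2 intensities minus the array's 75th percentile, called normalized signals below. A fold is therefore relative to the other RNA on an array and is not an amount recovered, and signals of different genes are not comparable because each probe has its own response.

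Most oxidative phosphorylation mRNAs were lower in both tagged DAZL IPs than in mock IP. By limma with Benjamini-Hochberg adjustment over all 19032 genes, 44 of the 80 were lower and 1 was higher in V5 IP, against 21.4% and 14.6% of all genes. In GFP IP 58 were lower and 1 was higher, against 26.5% and 16.3% of all genes. The median log2 fold change of the 80 was -0.91 for V5 IP and -1.12 for GFP IP, with -0.44 for all genes in both. For 70 of the 80, both V5 arrays lay below both mock arrays, which held for 47.2% of all genes, and for 70 both GFP arrays did, against 48.2% of all genes. For 3 genes, Ndufc2, Sdha and Sdhc, both IP arrays lay above both mock arrays, in either IP, against 22.3% and 23.8% of all genes. A second Sdha probe went the other way. Blocking on the slide gave 62 lower and 2 higher in V5 IP (all genes 38.4% and 19.4%), and 67 and 2 in GFP IP (all genes 40.2% and 20.9%). Both comparisons use the same 2 mock arrays. Ndufc2, an accessory subunit of complex I, was the single member that was higher.

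**Figure D1:**
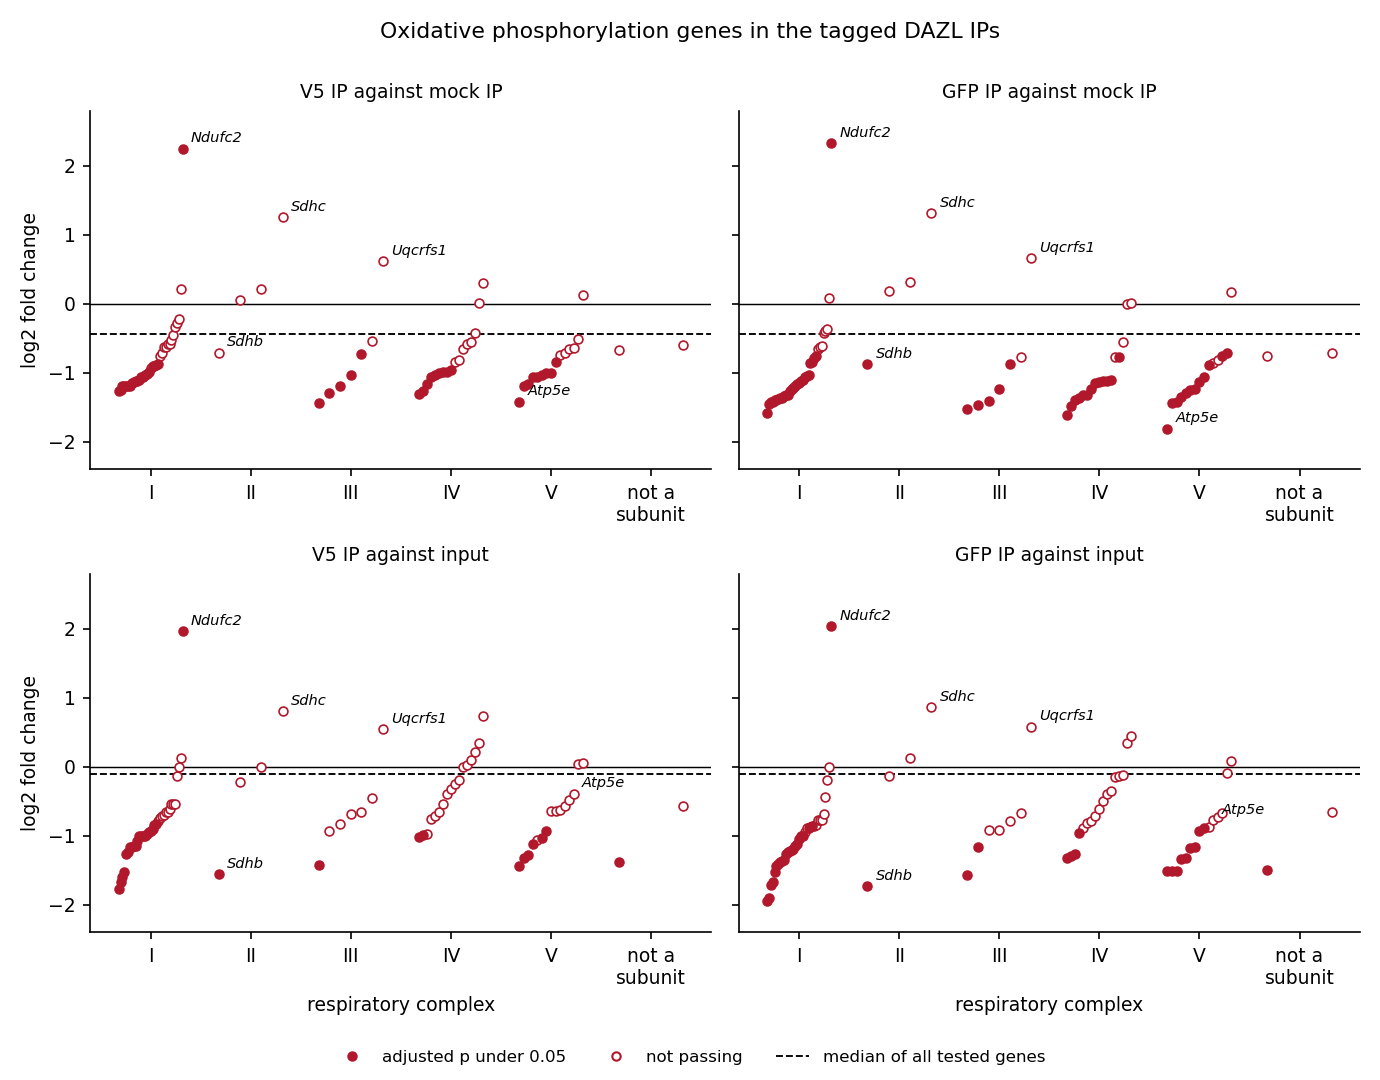
Each point is 1 of the 80 genes, grouped by respiratory complex and ordered by value within it, with its log2 fold change on the y axis in the comparison named above each panel. Filled points passed an adjusted p of 0.05 and the dashed line is the median of all tested genes. Most points lie below that line in all 4 panels, Ndufc2 lies near 2 in each, and the 4 genes of complex II are spread on both sides of 0.

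The size of the shift differed between the slides. The median difference from mock IP was -1.23 on slide 1 and -0.58 on slide 2 for V5 IP, and -1.54 and -0.75 for GFP IP. The median normalized signal of the 80 genes was 4.45 and 4.46 on the V5 arrays, 4.31 and 4.27 on the GFP arrays, 5.39 and 4.87 on the mock arrays, and 5.13 and 5.06 on the input arrays. The IP arrays were thus alike on both slides, and mock IP replicate 1 was the highest array. Without it, the median was -0.64 for V5 IP and -0.85 for GFP IP, against -0.36 for all genes in both. In that fit 70 members in V5 IP and 71 in GFP IP had a negative log2 fold change. Fewer members passed as lower than with all arrays, and so did a smaller share of all genes.

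**Figure D2:**
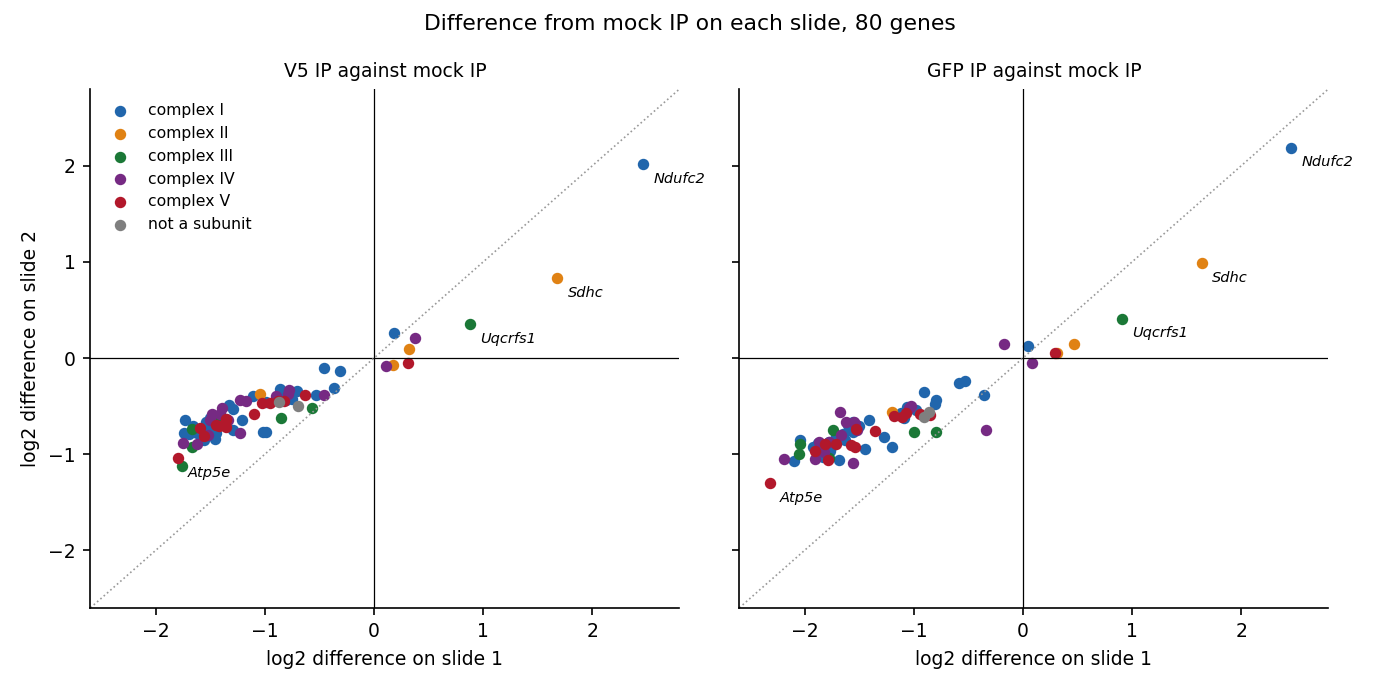
Each point is 1 of the 80 genes, with the log2 difference between IP and mock IP on slide 1 on the x axis and on slide 2 on the y axis, coloured by complex. The dotted line marks equal differences. Most genes lie in the lower left quadrant above that line, so their difference was larger on slide 1, and Ndufc2, Sdhc and Uqcrfs1 lie in the upper right one on both slides.

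Complex I contributed 35 genes by name, 7 of its catalytic core and 28 counted as accessory subunits, which surround the core and hold the complex together. The 28 include Ndufa4, which is named after complex I but now known as a complex IV subunit. Of the 35, 21 were lower in V5 IP and 27 in GFP IP than in mock IP, with medians of -0.93 and -1.15. Ndufa3, an accessory subunit of the membrane arm, had normalized signals of 3.01 and 3.56 on the V5 arrays, 2.66 and 3.27 on the GFP arrays, and 4.75 and 4.34 on the mock arrays. The IP arrays were all below the mock arrays, and Ndufa3 was 2.40-fold lower in V5 IP (log2 -1.26 ± 0.32 SE, adjusted p = 0.0251) and 2.99-fold lower in GFP IP (log2 -1.58 ± 0.32, adjusted p = 0.0112). A second Ndufa3 probe, far dimmer, did not show this: it lay at 0.22 and 0.04. Ndufa13, an accessory subunit also known as GRIM-19, had the next lowest value in V5 IP (log2 -1.25 ± 0.35, adjusted p = 0.0328) and also passed in GFP IP (log2 -1.38 ± 0.35, adjusted p = 0.0202). Ndufb2, a small accessory subunit of the membrane arm, lay at -1.20 for V5 IP and -1.45 for GFP IP and passed in both.

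All 7 core genes had both IP arrays below both mock arrays, and 4 passed as lower in V5 IP and 6 in GFP IP. Ndufv1, which carries the flavin that accepts electrons from NADH, had normalized signals of 3.94 and 3.96 on the V5 arrays, 3.70 and 3.75 on the GFP arrays, and 5.39 and 4.80 on the mock arrays. It was lower in V5 IP (log2 -1.15 ± 0.26, adjusted p = 0.0204) and in GFP IP (log2 -1.37 ± 0.26, adjusted p = 0.00961). Ndufs1, the largest iron-sulfur subunit of the core, had the smallest shift of the 7, at -0.34 for V5 IP and -0.37 for GFP IP, and passed in neither. Blocking on the slide also made Ndufv2, another core gene, lower in V5 IP (log2 -0.63, adjusted p = 0.0352).

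Ndufc2 was the only complex I gene called higher, and its values rest on 1 usable probe. Its normalized signals were 8.02 and 6.78 on the V5 arrays, 8.01 and 6.96 on the GFP arrays, 5.55 and 4.76 on the mock arrays, and 5.49 and 5.39 on the input arrays. Every IP array was above every mock and input array. Ndufc2 was 4.74-fold higher in V5 IP than in mock IP (log2 2.25 ± 0.51, adjusted p = 0.0209) and 5.01-fold higher in GFP IP (log2 2.33 ± 0.51, adjusted p = 0.0138), with differences of 2.47 and 2.02 within the slides for V5 IP, and of 2.46 and 2.19 for GFP IP. It also exceeded input, 3.90-fold for V5 IP (adjusted p = 0.0274) and 4.12-fold for GFP IP (adjusted p = 0.0205). In mock IP against input it lay at -0.28 (adjusted p = 0.722). The calls against mock IP ended without mock IP replicate 1 or 2 or replicate 1 of the IP tested, where the log2 fold change was between 1.62 and 2.72, and with normexp background correction (adjusted p = 0.0685 for V5 IP and 0.0515 for GFP IP). The only other complex I gene above 0 in both IPs was Ndufa6, an accessory subunit of the LYR family, at 0.22 for V5 IP and 0.08 for GFP IP, which did not pass.

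**Figure D3:**
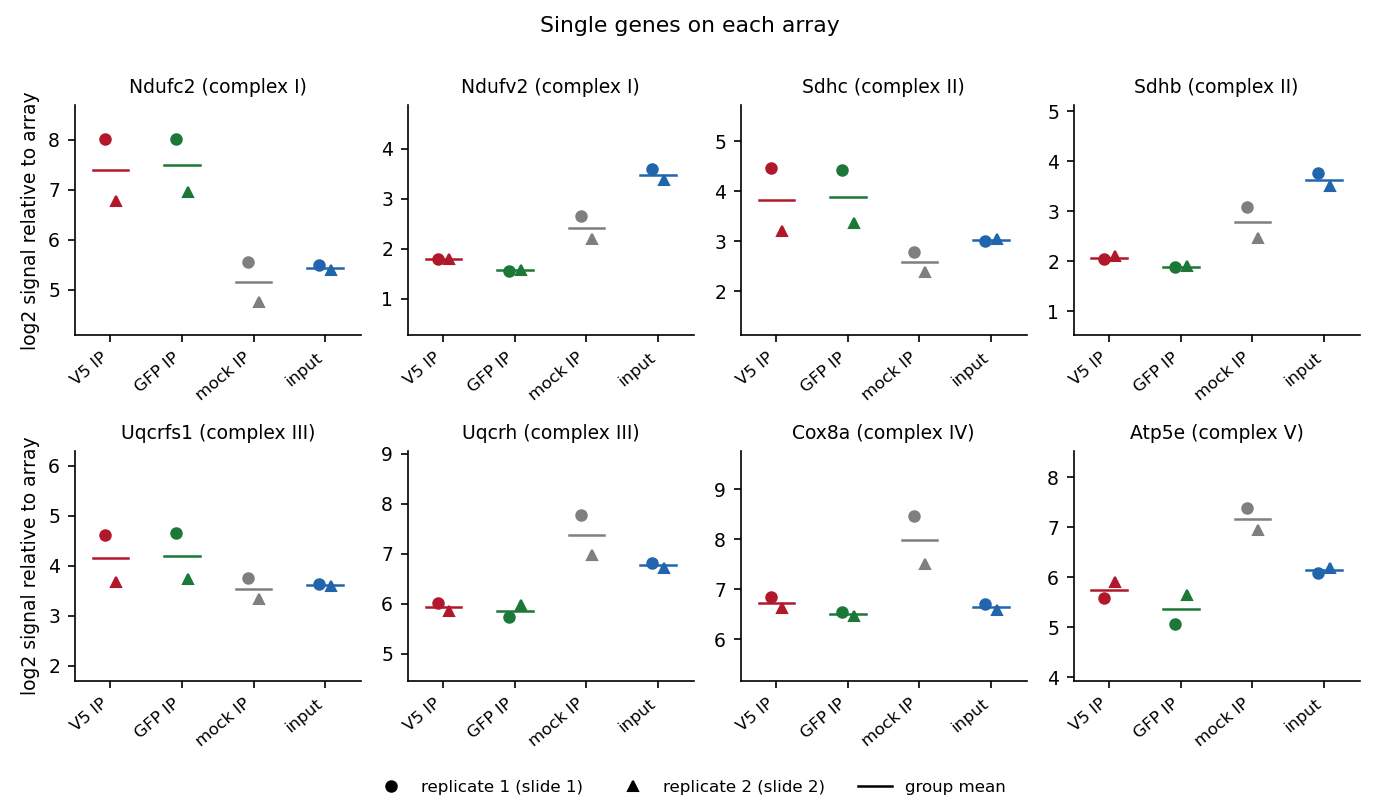
Normalized log2 signal of 8 genes on every array, with V5 IP, GFP IP, mock IP and input from left to right, a circle for replicate 1, a triangle for replicate 2 and a bar for the group mean. Every panel spans the same range of log2 units. Ndufc2 and Sdhc have every IP array above every mock array, Uqcrfs1 has replicate 2 of each IP just below mock IP replicate 1, Ndufv2 and Sdhb are highest in input, and Uqcrh, Cox8a and Atp5e are highest in mock IP.

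The 4 genes of complex II, which also acts in the tricarboxylic acid cycle, lay on both sides of 0, and their difference from the other complexes was not tested. The median log2 fold change was 0.13 for V5 IP and 0.24 for GFP IP, and 0 passed as lower in V5 IP and 1 in GFP IP. Sdhc, a membrane anchor that binds haem and ubiquinone, had normalized signals of 4.46 and 3.20 on the V5 arrays, 4.42 and 3.36 on the GFP arrays, and 2.78 and 2.38 on the mock arrays. The IP arrays were all above the mock arrays, but the replicates of each IP were more than 1 log2 unit apart. The difference of 1.25 ± 0.48 in V5 IP (adjusted p = 0.0746) and of 1.31 ± 0.48 in GFP IP (adjusted p = 0.0603) did not pass, and both passed with the slide as a block (adjusted p = 0.0135 and 0.00958). Sdhb, the iron-sulfur subunit, ran the other way. It had 2.04 and 2.10 on the V5 arrays, 1.89 and 1.90 on the GFP arrays, 3.09 and 2.47 on the mock arrays, and 3.76 and 3.5 on the input arrays. Sdhb was lower than mock IP in GFP IP (log2 -0.88 ± 0.27, adjusted p = 0.0352) and, with the slide as a block only, in V5 IP (log2 -0.71 ± 0.27, adjusted p = 0.0742, blocked 0.0322). The second anchor gene Sdhd lay at 0.05 and 0.18 and the flavoprotein gene Sdha at 0.21 and 0.31 in V5 IP and GFP IP, and neither passed. A second Sdha probe lay at -0.64 and -0.62. On the input arrays it was the brighter of the 2 probes, with 1.63 and 1.35 against 1.14 and 1.06. In a fit over probes it was lower than input in V5 IP (log2 -1.32, adjusted p = 0.00853) and GFP IP (log2 -1.30, adjusted p = 0.00758). The sign of the complex II medians against mock IP thus depends on the probe taken for Sdha.

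Of the 7 complex III genes, 5 were lower than in mock IP in V5 IP and 5 in GFP IP. Uqcrh, the hinge protein between cytochrome c1 and cytochrome c, had normalized signals of 6.02 and 5.86 on the V5 arrays, 5.73 and 5.98 on the GFP arrays, and 7.78 and 6.98 on the mock arrays. It was 2.71-fold lower in V5 IP (log2 -1.44 ± 0.30, adjusted p = 0.0176) and 2.88-fold lower in GFP IP (log2 -1.52 ± 0.30, adjusted p = 0.0110), and its second probe moved the same way, by -1.19 and -1.41. Uqcrc1, a core protein of the matrix side, was lower by log2 -1.30 ± 0.39 in V5 IP (adjusted p = 0.0379) and -1.41 ± 0.39 in GFP IP (adjusted p = 0.0249), with a second probe at -1.22 and -1.34. Uqcr, a small subunit now named Uqcr11, lay at -1.20 and -1.47 and passed in both IPs. Uqcrb, the ubiquinone-binding protein, lay at -0.54 for V5 IP and -0.78 for GFP IP and passed only with the slide as a block (adjusted p = 0.0478 and 0.0114). Uqcrfs1, the Rieske iron-sulfur protein that takes electrons from ubiquinol, was the exception. It had 4.62 and 3.68 on the V5 arrays, 4.65 and 3.74 on the GFP arrays, and 3.75 and 3.33 on the mock arrays, and its difference of 0.62 for V5 IP and 0.66 for GFP IP did not pass (adjusted p = 0.255 and 0.223).

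Of the 17 complex IV genes, 9 were lower in V5 IP and 13 in GFP IP than in mock IP. Among the 10 general subunits all had both IP arrays below both mock arrays, and 7 and 9 passed. Cox8a, a small membrane subunit, had normalized signals of 6.84 and 6.62 on the V5 arrays, 6.55 and 6.46 on the GFP arrays, 8.46 and 7.51 on the mock arrays, and 6.70 and 6.59 on the input arrays. It was lower than mock IP in V5 IP (log2 -1.26 ± 0.33, adjusted p = 0.0275) and in GFP IP (log2 -1.48 ± 0.33, adjusted p = 0.0140). The mock arrays stood above those of all other groups, and against input Cox8a lay at 0.09 for V5 IP and -0.14 for GFP IP.

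Complex IV also has tissue isoforms, 6 of which the rule took, and of these 2 passed as lower in V5 IP and 4 in GFP IP. Cox7a1, the heart and muscle isoform of subunit VIIa, was 2.49-fold lower in V5 IP (log2 -1.31 ± 0.30, adjusted p = 0.0216) and 3.07-fold lower in GFP IP (log2 -1.62 ± 0.30, adjusted p = 0.00955), with 4.78 and 5.05 on the V5 arrays, 4.34 and 4.87 on the GFP arrays, and 6.53 and 5.92 on the mock arrays. Cox6b2, the testis isoform of subunit VIb, was lower by log2 -1.0 ± 0.24 in V5 IP (adjusted p = 0.0231) and -1.32 ± 0.24 in GFP IP (adjusted p = 0.00868). The muscle isoform genes Cox6a2 and Cox8b lay at -0.58 and -0.56 in V5 IP, which did not pass (Cox6a2 blocked adjusted p = 0.0489), and at -0.77 and -1.12 in GFP IP, which did (adjusted p = 0.0349 and 0.0322). Cox8b was above background on 1 of 2 GFP arrays and 2 of 2 mock arrays, and with normexp its value in GFP IP was 0.10. Cox4i2, the isoform known from lung, was above background on 2 of 2 input arrays and 1 of 2 arrays in each other group, and did not pass. Beside these isoforms, the 7 cardiac and muscle markers had 2 members lower in V5 IP and 4 in GFP IP, with medians of -0.78 and -1.06. The 3 feeder fibroblast markers had medians of -1.25 and -1.31 with 1 member lower in each IP, and 1.40 in mock IP against input, where 1 was higher. The medians of the 3 mesenchyme markers were -1.12 and -1.31, also with 1 lower in each IP. Of the 10 primordial germ cell markers 2 were lower and 4 higher in each IP, with medians of 1.0 and 1.10. The other marker lists lay on both sides of 0. The 4 neural markers had medians of 1.28 and 1.24, with 0 lower and 1 higher in each IP. Medians were 0.07 and 0.12 for the 3 tested blood and endothelium markers. Those of the 5 endoderm markers were -0.35 and -0.28, and those of the 7 spermatogenic markers -0.51 and -0.41. The spermatogenic list is not separate from the genes described here. It holds the members Cox6b2 and Cox8c, and Cyct and Slc25a31 of other lists. The median of all genes was -0.44 for both IPs, with 21.4% lower and 14.6% higher for V5 IP, and 26.5% and 16.3% for GFP IP. The part of these cells in the results was not tested. Cox8c, a testis isoform, lay at 0.30 and -0.01, and Cox7a2l, a factor that joins complexes III and IV into a supercomplex, at 0.01 in both IPs.

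Complex V had 9 of 15 genes lower in V5 IP and 12 in GFP IP than in mock IP. Atp5e, the epsilon subunit of the central stalk, had normalized signals of 5.58 and 5.91 on the V5 arrays, 5.06 and 5.65 on the GFP arrays, 7.38 and 6.95 on the mock arrays, and 6.09 and 6.18 on the input arrays. All IP arrays were below the input arrays and these below the mock arrays. Against mock IP, Atp5e was 2.67-fold lower in V5 IP (log2 -1.42 ± 0.29, adjusted p = 0.0169) and 3.51-fold lower in GFP IP (log2 -1.81 ± 0.29, adjusted p = 0.00603), the lowest value of the 80 genes there. The call in V5 IP ended with normexp (adjusted p = 0.0781) and without replicate 1 of mock IP or of V5 IP (0.0796 and 0.0954). Its difference from input was -0.39 for V5 IP and -0.78 for GFP IP and did not pass (adjusted p = 0.359 and 0.0775, the second 0.0418 with the slide as a block). Atp5d, the delta subunit of the same stalk, was lower by log2 -1.19 ± 0.26 in V5 IP (adjusted p = 0.0193) and -1.43 ± 0.26 in GFP IP (adjusted p = 0.00887). Atp5j2, the f subunit in the membrane, lay at -1.17 and -1.44 and passed in both. Smaller shifts were found in the peripheral stalk genes Atp5j, at -0.51 and -0.76, and Atp5f1 (now Atp5pb), at -0.64 and -0.72. Both passed in GFP IP (adjusted p = 0.0302 and 0.0374), and in V5 IP Atp5f1 passed with the slide as a block (adjusted p = 0.0608, blocked 0.0304). Atp5a1, the catalytic-head alpha subunit, was the only complex V gene above 0, at 0.13 for V5 IP and 0.17 for GFP IP, with a second probe at -0.40 and -0.38.

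The 2 genes that are no subunits lay near the others. Cox4nb, a subunit of the endoplasmic reticulum membrane complex, was at -0.67 for V5 IP and -0.76 for GFP IP, and did not pass without the slide block (blocked adjusted p = 0.0308 and 0.0170). A second, dimmer Cox4nb probe pointed the other way, with -1.74 and -2.07 on the V5 arrays, -1.52 and -1.85 on the GFP arrays, and -4.45 and -3.84 on the mock arrays. The differences of this probe, 2.24 and 2.46, passed in a fit over probes (adjusted p = 0.00404 and 0.00275), so the direction of Cox4nb depends on the probe. Among the 20 members with 2 or more usable probes, Cox4nb, Ndufa3, Sdha and Atp5a1 were the 4 whose probes differed in sign. Ndufc2, Sdhc and Uqcrfs1 are not among these 20, so their direction could not be checked with a second probe. Many subunit genes have processed pseudogenes, and whether these probes read them was not tested. A further 4 subunit genes that the rule missed because the files name them otherwise (Atp5mpl, Atp5md, Ndufv3 and Uqcr10) had 3 members lower for V5 IP and 4 for GFP IP, with medians of -1.01 and -1.26.

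Against input, complex I held most of the genes called lower. Of the 80 genes 31 were lower and 1 higher in V5 IP, against 13.7% and 14.1% of all genes, and 40 were lower and 1 higher in GFP IP, against 16.8% and 16%. For 66 genes both V5 arrays, and for 68 both GFP arrays, were below both input arrays, against 39.6% and 41.2% of all genes. For 5 and 4 they were above, against 30.7% and 31.7%. Blocking on the slide gave 42 lower and 2 higher in V5 IP (all genes 24.2% and 20.4%), and 60 and 1 in GFP IP (all genes 26.8% and 22%). The medians were -0.71 and -0.89, with -0.11 for all genes in both, and were similar on both slides (-0.80 and -0.68 in V5 IP, -1.03 and -0.80 in GFP IP). Complex I gave 20 of the genes that were lower in V5 IP and 23 in GFP IP, including all 7 core genes in both. Both counts also include Ndufa4, which was counted with complex I by name. Complex III gave 1 and 2, complex IV 2 and 4, and complex V 6 and 9. These comparisons share the IP arrays with those against mock IP. The counts of lower genes depended on single arrays and on the background correction. They were 2 for V5 IP and 6 for GFP IP without input replicate 1, 5 and 9 without input replicate 2, and 6 and 10 without replicate 1 of the IP. With normexp they were 4 and 12, against 1.73% and 2.49% of all genes. The members' median minus that of all genes was then -0.05 for V5 IP.

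The lowest values against input were in complex I. Ndufs4, an accessory subunit next to the NADH-oxidizing module, had 2.75 and 3.06 on the V5 arrays, 2.62 and 2.82 on the GFP arrays, and 4.85 and 4.5 on the input arrays. It was 3.41-fold lower in V5 IP (adjusted p = 0.00542) and 3.87-fold lower in GFP IP (adjusted p = 0.00346). Ndufv2, an iron-sulfur subunit of that module, had 1.79 and 1.80 on the V5 arrays, 1.56 and 1.58 on the GFP arrays, 2.65 and 2.2 on the mock arrays, and 3.59 and 3.37 on the input arrays, and was 3.21-fold lower in V5 IP (adjusted p = 0.00396) and 3.76-fold lower in GFP IP (adjusted p = 0.00244). Sdhb was 2.95-fold and 3.32-fold lower than input in V5 IP and GFP IP (adjusted p = 0.00698 and 0.00424), and Ndufa10, an accessory subunit, 2.90-fold and 3.30-fold (adjusted p = 0.00356 and 0.00233). Atp5s, also known as coupling factor B, was 2.62-fold and 2.83-fold lower (adjusted p = 0.0191 and 0.0124). Against mock IP Atp5s passed in GFP IP only with the slide as a block (log2 -0.71, adjusted p = 0.111, blocked 0.0299). Ndufa4, named after complex I but now known as a complex IV subunit, lay at -0.83 and -0.86 and passed in both (adjusted p = 0.0467 and 0.0362). It passed against mock IP with the block only, at -0.59 and -0.63 (blocked adjusted p = 0.0486 and 0.0381). Of the isoforms of complex IV, 0 of 6 passed against input by limma in either IP. Cox8c was higher in V5 IP once the slide was a block (log2 0.74, adjusted p = 0.0264), and Cox6b2 was then lower in GFP IP (log2 -0.72, adjusted p = 0.0544, blocked 0.0284). The block also made Atp5j, Ndufb2, Uqcrb and Uqcrh lower in V5 IP (blocked adjusted p between 0.00737 and 0.0370), and Cox4nb, Ndufa3, Ndufa13, Uqcr, Uqcrc1 and Uqcrh in GFP IP (between 0.0233 and 0.0390).

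Mock IP itself differed from input for few members. Of the 80 genes 1 was lower and 1 higher, against 4.03% and 6.63% of all genes. Blocking on the slide made these counts 6 and 4, against 13.3% and 21.4%. For 16 genes both mock arrays lay below both input arrays and for 21 above, against 26.3% and 40.9% of all genes. The median was 0.08, with 0.20 for all genes, and was 0.33 on slide 1 and -0.18 on slide 2. Cox8a was 2.54-fold higher in mock IP (log2 1.34 ± 0.33, adjusted p = 0.0444), and Ndufv2 was 2.08-fold lower (log2 -1.06 ± 0.25, adjusted p = 0.0403). Of the 8 fits that leave out 1 array, both calls held only in that without mock IP replicate 2, and the log2 fold change was between 0.87 and 1.82 for Cox8a and between -1.28 and -0.83 for Ndufv2. Atp5g2, which encodes the c subunit of the membrane ring, lay at 1.04 and Atp5e at 1.03 (adjusted p = 0.0739 and 0.0617, blocked 0.0192 and 0.0228). Sdhb lay at -0.85 (adjusted p = 0.0793, blocked 0.0275). Cox7a1 lay at 1.0 (adjusted p = 0.0714, blocked 0.0321), and the block also made Atp5f1, Atp5s, Ndufa10 and Uqcrc2 lower in mock IP (blocked adjusted p between 0.0220 and 0.0354). The medians by complex were 0.55 for complex III and 0.45 for complex IV, -0.03 for complex I and -0.44 for complex II. The same mock arrays enter every comparison with mock IP. Atp5g2, which had 8.02 and 7.27 in mock IP and 6.90 and 6.30 in input, passed as lower than mock IP in both IPs (log2 -1.0 and -1.13) but lay at 0.05 and -0.09 against input.

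V5 IP and GFP IP gave no member that differed by the test. Limma called 0 of the 80 genes lower and 0 higher (0% of all genes each), and 0 of the 80 had an unadjusted p under 0.05, against 187 of 19032. With the slide as a block the members' counts were still 0, and 1 gene of all (0.00525%) was higher. The sign was mostly the same, however. Of the 80 genes, 73 had a positive log2 difference of V5 IP from GFP IP, with a median of 0.19 against 0.01 for all genes, and for 35 both V5 arrays lay above both GFP arrays, which held for 9.96% of all genes. For 0 of the 80 did both lie below, against 6.68%. The widest differences were those of Cox8b (0.56), which was above background on 1 of 2 V5 arrays and 1 of 2 GFP arrays, and Atp5e (0.39) above 0, and of Sdhd (-0.12) and Sdha (-0.10) below 0.

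The members' probes gave strong signals on these arrays, which depends in part on the probe. Of the 80, 69 were among the brightest 25% of all tested genes by mean signal. Among these genes the members' median was -0.99 in V5 IP against mock IP, while the other 4689 genes had a median of -0.33, and 60 of the 69 lay below that value. In GFP IP the medians were -1.16 for the members and -0.31 for the other genes. Against input they were -0.71 and 0.05 for V5 IP, and -0.89 and 0.05 for GFP IP. In mock IP against input they were 0.10 and 0.21.

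Other lists of mitochondrial energy metabolism are given with their counts against mock IP. The shares of all genes were 21.4% lower and 14.6% higher for V5 IP, and 26.5% and 16.3% for GFP IP. Of 31 measured assembly factors of the complexes, 10 were lower and 3 higher than mock IP for V5 IP, and 15 and 3 for GFP IP, with medians of -0.65 and -0.72. Coa5, a factor of complex IV assembly, had 5.0 and 4.35 on the V5 arrays, 5.0 and 4.54 on the GFP arrays, and 2.73 and 3.0 on the mock arrays, and was 3.51-fold and 3.75-fold higher in V5 IP and GFP IP (adjusted p = 0.00780 and 0.00561). Ndufaf4, of complex I assembly, was 2.37-fold and 2.12-fold higher (adjusted p = 0.0161 and 0.0157). The factor genes Cox19 and Sdhaf1 were lower, at -0.92 and -0.83 for V5 IP, and -0.98 and -1.0 for GFP IP (adjusted p of 0.0284 and 0.0275, and of 0.0187 and 0.0135). Of 15 electron carrier and accessory genes, including those of ubiquinone synthesis, 3 were lower and 2 higher for V5 IP, and 5 and 2 for GFP IP. Their medians of -0.42 and -0.40 were close to the -0.44 of all genes. Coq10b, a ubiquinone-binding protein, was 3.60-fold and 3.64-fold higher (adjusted p = 0.00672 and 0.00564). Etfb, which delivers electrons from fatty acid oxidation, was 2.51-fold and 2.86-fold lower (adjusted p = 0.0229 and 0.0123), and Coq4, of ubiquinone synthesis, was lower by log2 -1.12 and -1.37 (adjusted p = 0.0215 and 0.00977). Coq3, also of ubiquinone synthesis, was above background on 2 of 2 V5 arrays, 1 of 2 GFP arrays and 0 of 2 mock arrays, and was at least 1.19-fold and 1.25-fold higher (adjusted p = 0.0236 and 0.0156). With normexp its value in V5 IP was -0.34.

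The tricarboxylic acid cycle list had 5 of 17 genes lower and 2 higher in V5 IP against mock IP, and 8 and 2 in GFP IP. The 2 higher genes were Suclg2, a subunit of succinyl-CoA ligase (2.73-fold and 3.34-fold, adjusted p = 0.0206 and 0.00959), and Pdhb, a subunit of pyruvate dehydrogenase (2.36-fold and 2.63-fold, adjusted p = 0.0479 and 0.0291). Among the lower ones were Fh1, which encodes fumarase, at -0.89 and -1.01 (adjusted p = 0.0328 and 0.0190), and Idh3g, a subunit of isocitrate dehydrogenase, at -0.99 and -1.10 (adjusted p = 0.0245 and 0.0138). Of 15 glycolysis genes 10 were lower and 0 higher for V5 IP, and 11 and 0 for GFP IP, with medians of -0.96 and -1.05. Aldoc, an aldolase, lay at -1.03 and -1.16 (adjusted p = 0.0197 and 0.0107), and Pfkm, a phosphofructokinase, at -1.03 and -1.14 (adjusted p = 0.0234 and 0.0137). The 2 highest glycolysis genes by the test were Hk2, a hexokinase, at 0.80 and 0.98, and Pfkp, another phosphofructokinase, at 0.51 and 0.80, which did not pass. With the slide as a block Hk2 passed in both IPs (adjusted p = 0.0170 and 0.00695) and Pfkp in GFP IP (adjusted p = 0.0144). Of 13 genes that regulate mitochondrial biogenesis 5 were lower and 3 higher for V5 IP, and 6 and 3 for GFP IP. Gabpa and Gabpb1, the subunits of the transcription factor GABP (also known as NRF2), which acts on respiratory genes, were 4.07-fold and 7.17-fold higher in V5 IP (adjusted p = 0.00234 and 0.00284) and 4.15-fold and 7.61-fold higher in GFP IP (adjusted p = 0.00197 and 0.00237). The Gabpb1 values rest on its brightest probe, and as the mean of its probes Gabpb1 changed sign in GFP IP against input. The coactivator gene Pprc1 and the nuclear receptor gene Esrra, which act on the same genes, were lower, at -1.12 and -1.20 for V5 IP, and -1.37 and -1.31 for GFP IP (adjusted p = 0.0190 and 0.0186, and 0.00811 and 0.0107). Both were higher in mock IP than in input, by log2 3.0 for Pprc1 and 1.72 for Esrra (adjusted p = 0.00581 and 0.0200). By group means, Pprc1 and Esrra thus lay above input and below mock IP in both IPs.

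The promoters of the members were searched for motifs of factors known to act on respiratory genes, as a description of the genes only. Whether the motifs relate to the IP results was not tested. The 250 bases before the start of transcription came from the RefSeq table of GRCm38.p6, which held 65 of the 80 genes. The NRF1 motif GCGCANGCG, on either strand, was in 13 of the 65 (20%), against 9.61% of 12586 tested genes and 5.33% of all 27025 promoters. The GABP motif CCGGAAG was in 11 (16.9%), against 11.7% and 7.05%, and the YY1 motif AAGATGGCG in 0, against 0.985% and 0.607%. Bases after the start of transcription were not searched, so matches there are not counted for any of the motifs. Members with and without the NRF1 motif had medians of -0.99 and -0.96 in V5 IP against mock IP, and of -1.15 and -1.15 in GFP IP. Matches on opposite strands can overlap, since the motif is close to a palindrome. The promoters are given 5′ to 3′ on the strand of the gene, with motif matches in capitals, of Ndufc2, the member that was higher (chr7:97399753-97400002, plus strand, no match), of Atp5e, the lowest in GFP IP (chr2:174464102-174464351, minus strand, 1 GABP match), and of Cox6a1, a complex IV subunit shown because it holds both motifs, with 3 NRF1 matches and 1 GABP match (chr5:115348959-115349208, minus strand, log2 -1.07 for V5 IP and -1.32 for GFP IP).
Ndufc2: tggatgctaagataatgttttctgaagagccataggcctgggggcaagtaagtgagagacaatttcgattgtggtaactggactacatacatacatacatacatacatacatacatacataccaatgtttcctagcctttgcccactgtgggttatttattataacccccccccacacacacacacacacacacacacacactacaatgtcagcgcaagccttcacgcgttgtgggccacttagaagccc
Atp5e: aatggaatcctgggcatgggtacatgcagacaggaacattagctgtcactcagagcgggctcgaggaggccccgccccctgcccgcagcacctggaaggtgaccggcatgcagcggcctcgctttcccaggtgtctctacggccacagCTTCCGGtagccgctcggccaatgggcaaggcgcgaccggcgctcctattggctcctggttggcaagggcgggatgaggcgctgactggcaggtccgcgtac
Cox6a1: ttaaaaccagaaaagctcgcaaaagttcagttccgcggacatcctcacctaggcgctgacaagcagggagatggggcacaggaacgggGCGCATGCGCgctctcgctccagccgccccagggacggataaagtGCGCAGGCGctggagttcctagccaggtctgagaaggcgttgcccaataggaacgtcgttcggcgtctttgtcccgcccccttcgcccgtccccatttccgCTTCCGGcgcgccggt
A match describes letters and does not show that a factor binds.

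Of 16 other settings, 7 leave the members' fold changes against mock IP as they are and alter only the test: the slide block, only the groups compared, no filter, and the 4 that leave out an array of another group. In the other 9, 70 to 75 of the 80 genes had a negative log2 fold change in V5 IP against mock IP, and 70 to 76 in GFP IP. The number of members called is to be read beside the share of all genes called lower, which also moved. In V5 IP this share was 0.0525% with normexp and 38.4% with the slide block, and in GFP IP 2.45% and 40.2%. The number that passed as lower moved between 0 and 62 in V5 IP and between 1 and 67 in GFP IP. It was 0 in V5 IP with normexp background correction, with 45 members at an unadjusted p under 0.05, and 0 without V5 IP replicate 1, with 40 members at an unadjusted p under 0.05, and 2 without either input array, which enter only the shared estimate of the spread. It was 18 without V5 IP replicate 2. In GFP IP it was 1 without GFP IP replicate 1, with 52 at an unadjusted p under 0.05. Atp5e was the only member called lower in GFP IP against mock IP whichever array was left out, and in V5 IP there was none. Against input the calls of Ndufa10 and Ndufv2 held in V5 IP whichever array was left out, and in GFP IP those of Atp5f1, Ndufa10, Ndufs4, Ndufv2, Sdhb and Uqcrc2, a core protein of complex III.

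**Figure D4:**
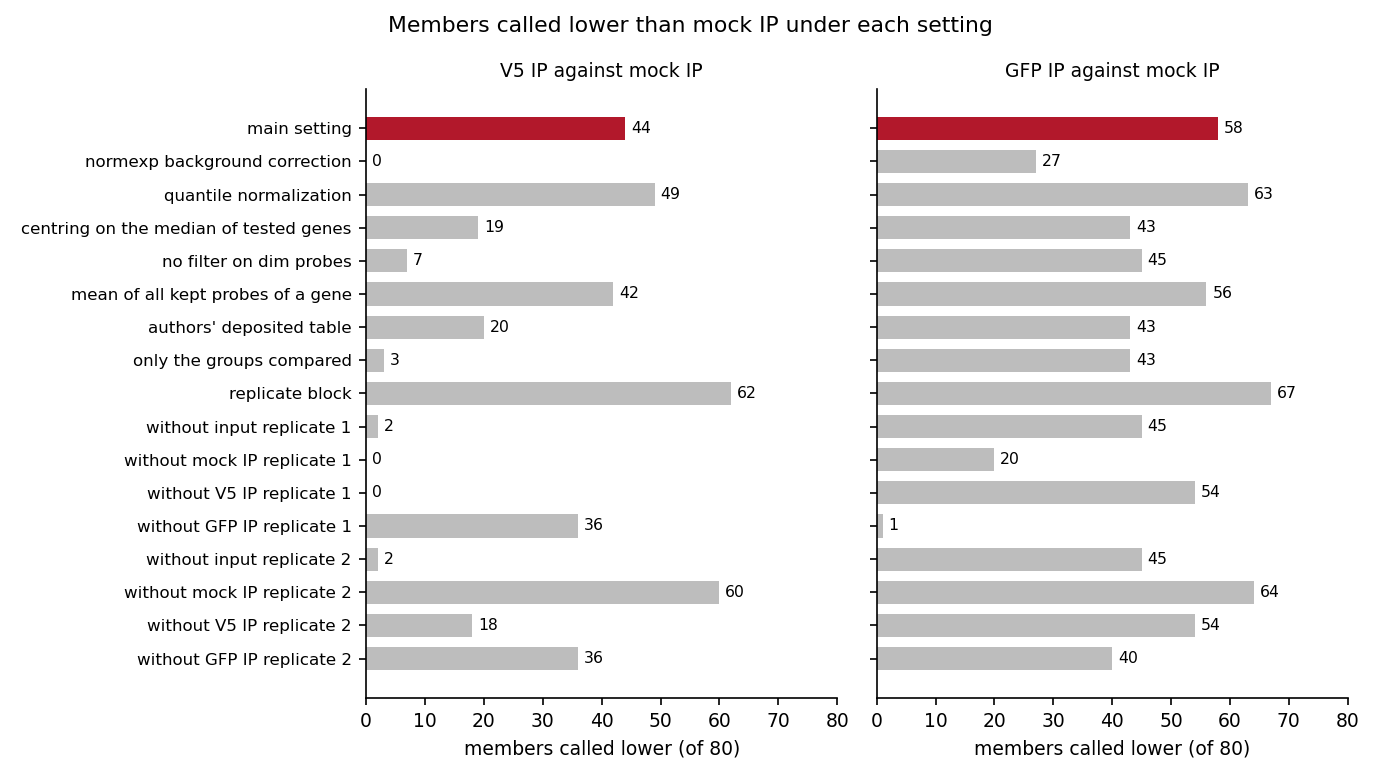
Number of the 80 genes called lower than mock IP (x axis, 0 to 80) in V5 IP and GFP IP under each setting, with the reported one in red. The share of all genes called lower, not drawn, also differs between settings. It is 21.4% and 26.5% in the reported one, and 0.0525% and 2.45% with normexp. The count in V5 IP is 44 and moves between 0 and 62, and that in GFP IP is 58 and moves between 1 and 67.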

How the data were processed

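The scanner files hold intensity values, which the authors deposited as background-subtracted processed signals from Agilent Feature Extraction 9.1.3.1, per the file headers. Each was divided by its array's 75th percentile over gene probes and put on the log2 scale. Probes stayed in if 1 group or more had both arrays well above background (28104 of 41174), and the brightest kept probe stood for its gene. The deposited table, normalized to the median in GeneSifter per the file headers, holds linear signals, which were put on the log2 scale after adding 0.1. It was matched to the probes within 1e-05 through its quality score column, also deposited, and served as an alternative.

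All 8 arrays entered 1 limma fit (3.58.1, R 4.3.3), with Benjamini-Hochberg adjustment over 19032 genes and a threshold of 0.05, and the fit was tested on simulated data. Errors are SE from that fit. The number of arrays limits the precision, and depth in reads does not apply. A group's array sat at one position, the same on either slide, so position and group cannot be told apart. Replicate numbers mark a shared slide, and the deviations of same-numbered arrays from their group means correlated between 0.30 and 0.78, so counts with the slide as a block are given for every comparison, with blocked values for most named members whose call they change. Alternatives were normexp background correction, quantile normalization, another centring, no filter, the mean of a gene's probes, the deposited table, only the groups compared, the slide block, and leaving out each array. Gene names came from RefSeq through 22951 accessions, 6659 current symbols and 3096 synonyms, and 8468 probes kept the file's name.

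Members and all lists were chosen with earlier results of these data known. Genes named in the text are Ndufc2 and Atp5e, the 2 lowest and 2 highest of each complex in each IP against mock IP, members called against the median or with probes of opposite sign, isoforms and genes that are no subunits, the 2 lowest and 2 highest in the other comparisons, and from each other list the 2 largest and 2 smallest moderated t in V5 IP against mock IP. Ndufv1, Ndufs1, Ndufs4, Ndufa10, Cox6a1 and Uqcrc2 lie outside that rule and were named after their values were seen.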

Additional observations from a re-analysis of the deposited data

How the results depend on the processing

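The counts below are of the 80 genes and are set against 44 lower and 1 higher (V5 IP against mock IP), 58 and 1 (GFP IP against mock IP), 31 and 1 (V5 IP against input), 40 and 1 (GFP IP against input) and 1 and 1 (mock IP against input). The cause of each change was not tested. With normexp they were 0 lower and 0 higher, 27 and 0, 4 and 0, 12 and 0, and 0 and 0, in that order. The shares of all genes were then 0.0525% lower and 4.99% higher, 2.45% and 6.21%, 1.73% and 6.23%, 2.49% and 6.58%, and 0% and 0.042%. With quantile normalization 51 were lower in V5 IP and 6 in mock IP, both against input (all genes 16.5% and 6.04%). In GFP IP against mock IP 2 were higher (all genes 17.2%). Centring on the median of tested genes gave 19 lower in V5 IP against mock IP (all genes 8.18%) and 0 higher in mock IP against input (all genes 4.22%). Without a filter on dim probes 7 were lower in V5 IP against mock IP (all genes 3.53%). In V5 IP against input 19 were then lower and 0 higher (all genes 6.15% and 7.7%), and in mock IP against input 0 and 0 (all genes 0.249% and 0.257%). The deposited table gave 20 lower in V5 IP (all genes 7.99%) and 2 higher in GFP IP (all genes 18.5%) against mock IP. The mean of probes gave 2 higher in each (all genes 13% for V5 IP and 14.6% for GFP IP). With only the groups compared, 3 were lower in V5 IP (all genes 2.01%) and 2 higher in GFP IP (all genes 14.4%) against mock IP. In mock IP against input 0 were then lower and 0 higher (all genes 0.105% and 0.121%).

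With the replicate number, which is the slide, as a block, 62 and 67 were lower and 2 higher in each of V5 IP and GFP IP against mock IP, 42 and 60 lower against input with 2 and 1 higher, and 6 lower and 4 higher in mock IP against input. The shares of all genes with the block are given with each comparison above. Those shares also moved when an array was left out. Leaving out each array in turn gave, in V5 IP against mock IP, 0 to 60 lower and 0 to 2 higher. In GFP IP against mock IP it gave 1 to 64 lower and 0 to 2 higher. Against input it gave 2 to 43 lower and 0 to 1 higher in V5 IP, 6 to 53 lower and 0 to 1 higher in GFP IP, and 0 to 1 lower and 0 to 10 higher in mock IP. The counts of 2 and 6 against input were those without input replicate 1, and without input replicate 2 they were 5 and 9. Without replicate 1 of the IP they were 6 and 10, and without V5 IP replicate 2 there were 19.

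Against mock IP, the members' median minus that of all genes was -0.47 for V5 IP and -0.68 for GFP IP, and it was -0.61 and -0.78 against input, -0.12 in mock IP against input and 0.18 in V5 IP against GFP IP. It was -1.15 with normexp in GFP IP against mock IP, where the median of all genes was -0.02 in place of -0.44. In V5 IP against input it was -0.05 with normexp, -0.94 with quantile normalization and -0.78 without the filter, and in GFP IP against input -1.15 with quantile normalization and -0.99 without the filter. In mock IP against input it was 0.29 with normexp, and in V5 IP against GFP IP 0.40 with normexp and 0.23 without the filter. Leaving out each array gave -0.70 to -0.29 for V5 IP and -0.90 to -0.49 for GFP IP against mock IP, -0.76 to -0.49 and -0.88 to -0.68 against input, -0.33 to 0.03 in mock IP against input and 0.11 to 0.25 in V5 IP against GFP IP.

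Of single genes, 5 values changed sign. Against mock IP, Cox4nb lay at 0.79 for V5 IP and 0.85 for GFP IP as the mean of its probes, Cox8b at 0.10 in GFP IP and Coq3 at -0.34 in V5 IP with normexp, and Gabpb1 at -0.04 in GFP IP against input as the mean of probes. Signal over background limited Cox4i2 and Cox8b, and 78 of the 80 genes were above background on all 8 arrays.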

Other observations

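Mitochondrial import and transport genes lie outside the oxidative phosphorylation genes. Against mock IP, 21.4% of all genes were lower and 14.6% higher for V5 IP, and 26.5% and 16.3% for GFP IP. Of 19 import genes 6 were lower and 2 higher than mock IP for V5 IP, and 7 and 2 for GFP IP, with medians of -0.46 and -0.56 against -0.44 for all genes. Tomm70a, a receptor of the outer membrane, was 5.36-fold higher in V5 IP and 5.32-fold higher in GFP IP (adjusted p = 0.00249 and 0.00209). Tomm34, a cytosolic protein that assists import, was 5.37-fold and 6.15-fold higher. Timm50, of the inner membrane translocase, was lower by log2 -1.27 for V5 IP and -1.45 for GFP IP (adjusted p = 0.0251 and 0.0137), and Tomm6, a small subunit of the outer membrane translocase, by -0.98 and -1.11 (adjusted p = 0.0208 and 0.0115). Of 9 carriers and pores 3 were lower and 0 higher for V5 IP, and 5 and 1 for GFP IP, with medians of -0.72 and -0.87. Slc25a4, an ADP/ATP carrier of heart and muscle, was lower by log2 -0.88 and -0.99 (adjusted p = 0.0314 and 0.0182), and Ucp2, an uncoupling protein, by -0.89 and -1.0 (adjusted p = 0.0252 and 0.0145). Slc25a31, the ADP/ATP carrier known from testis, lay at 0.92 and 1.09 and passed only with the slide as a block (adjusted p = 0.125 and 0.0753, blocked 0.0185 and 0.00856). The higher one was Vdac2, an outer membrane pore, at 1.24 in GFP IP (adjusted p = 0.0418) and 1.06 in V5 IP (adjusted p = 0.0726, blocked 0.0114).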
